A study of Mus musculus and Rattus norvegicus with 96 samples.

Results

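Respiratory complex I was followed through its nuclear genes in mouse liver, as every gene of the count table whose symbol begins with Nduf and whose level averaged at least 1 CPM (counts scaled to the library total) over 48 libraries. The rule found 45 of the 46 Nduf rows among the 24543 genes of the table, and all 45 were among the 13370 genes that passed the filter on low counts. Of these, 7 encode core subunits, 29 encode accessory subunits, 8 encode assembly factors (Ndufaf symbols), and 1 is Ndufa4. Ndufaf5 lay just inside the limit at a mean of 2.81 CPM, and Ndufa4l2 lay just outside at 0.726 CPM. The gene Ndufb1 and the complex I subunits encoded by mitochondrial DNA were not analysed here.

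Complex I is the entry point of the respiratory chain. It takes electrons from NADH through a flavin and a row of iron-sulfur clusters in its matrix arm to ubiquinone, and its membrane arm pumps protons. The core subunits carry out the chemistry, the accessory subunits surround and stabilise them, and the assembly factors help to build the complex but are not part of the finished enzyme. Ndufa4 carries a complex I name but is now assigned to complex IV.

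Male B6C3F1 mice received 600 ppm phenobarbital (PB, a barbiturate that induces drug metabolism in hepatocytes) in drinking water for 7 days, or water alone (Con), with 6 mice in each treatment. The liver of each of the 12 mice was prepared in 4 ways, which gave 8 groups of 6 libraries. Liver was kept frozen (FR), fixed directly in 10% neutral buffered formalin for 18 to 24 h and paraffin-embedded (FFPE), frozen before the same formalin fixation and embedding (FR > FFPE), or frozen before fixation in 70% ethanol and embedding (FR > OH). Stranded total RNA-seq of ribosome-depleted RNA was counted per gene. FR was extracted with another reagent than the embedded tissue, and the paper states that FFPE samples were fragmented for less time. Preparation therefore cannot be told apart from extraction or fragmentation. In bulk liver, fewer cells of a type and less RNA per cell cannot be told apart either.

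Library totals ranged from 4952797 to 6760422 counts for FFPE, 8167321 to 11539022 for FR > OH, 5534973 to 10681783 for FR > FFPE and 11737338 to 13702672 for FR. Cyp2b10, the classical PB-induced cytochrome P450, was at 0 to 2.45 CPM in the 24 Con libraries and at 1078 to 2289 CPM in the 24 PB libraries, as labelled. The sample titles carry a number after the letter L, whose meaning the labels do not give, and it was treated as a batch (L group). It followed the preparations: all 6 FFPE Con libraries were in L group 1 and all 6 FR Con libraries in L group 2. Hepatocyte markers were detected in every preparation.

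Promoters of 3 members are shown, chosen after their values were seen from the members that hold the motif searched for: Ndufs5 had the lowest value after direct fixation, Ndufb4 was among the 5 lowest, and Ndufaf4 is an assembly factor. Each line gives the 250 bases before the RefSeq transcript start in GRCm38.p6, read 5′ to 3′ on the gene's strand, with the match to the core of the site of nuclear respiratory factor 1 (NRF1) in capitals, any base being allowed at the position where the matches differ. The windows are chr4:123718187-123718436 (minus strand), chr16:37654369-37654618 (minus strand) and chr4:24897833-24898082 (plus strand).
Ndufs5: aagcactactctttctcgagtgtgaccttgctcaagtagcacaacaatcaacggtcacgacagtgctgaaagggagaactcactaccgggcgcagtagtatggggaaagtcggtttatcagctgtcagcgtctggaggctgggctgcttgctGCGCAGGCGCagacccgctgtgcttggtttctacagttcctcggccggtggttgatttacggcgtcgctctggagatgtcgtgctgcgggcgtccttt
Ndufb4: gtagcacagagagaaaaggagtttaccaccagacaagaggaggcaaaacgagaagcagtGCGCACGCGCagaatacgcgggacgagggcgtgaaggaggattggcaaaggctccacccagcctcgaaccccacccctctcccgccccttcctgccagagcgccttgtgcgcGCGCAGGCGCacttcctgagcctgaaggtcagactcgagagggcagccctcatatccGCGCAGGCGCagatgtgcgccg
Ndufaf4: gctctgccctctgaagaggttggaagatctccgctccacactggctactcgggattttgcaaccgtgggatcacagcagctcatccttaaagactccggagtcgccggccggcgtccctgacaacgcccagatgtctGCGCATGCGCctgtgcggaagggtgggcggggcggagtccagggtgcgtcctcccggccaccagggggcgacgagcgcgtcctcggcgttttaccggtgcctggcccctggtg
Ndufb4 held 3 matches, and the other two promoters held 1 each. RefSeq windows of 300 bases, with 50 bases after the start, were found for 40 of the 45 members, and 4 motifs were searched on both strands. The NRF1 core was in 9 of 40 windows (22.5%), against 4.68% of all 27025 windows and 10.1% of the 10280 windows of genes that were tested. AAGATGGCG (YY1) was in 6 windows (15%, against 1.49% of all windows and 3.12% of those of tested genes), CCGGAAGT (ETS factors) in 1 (2.5%, against 3.93% and 7.99%), and TCAAGGTCA (oestrogen-related receptors) in 0, against 0.407% and 0.282%. These matches are a description of the letters and were not tested against the expression values.

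Levels of the members differed widely. Per kilobase of transcript, the mean over 48 libraries ran from 2.41 CPM per kb for Ndufaf5, an enzyme that modifies a core subunit during assembly, to 164 CPM per kb for Ndufa4, a 68.2-fold range. Ndufa4 was the highest in 7 of the 8 groups, and in FFPE Con Ndufb9 was above it (95.4 against 81.1 CPM per kb). The next highest were Ndufb9 at 122 and Ndufa6 at 107 CPM per kb, accessory subunits that bind the mitochondrial acyl carrier protein. Core subunits had a median of 39.4 CPM per kb and none was below 32.3, the value of Ndufs1. Accessory subunits had nearly the same median, 41.7, over a range of 2.41 to 122 CPM per kb. Assembly factors were at 2.41 to 14.1 CPM per kb, with a median of 5.23, and 35 of the 36 subunits stood above the highest of them (32 in FFPE Con, and 34 or 35 in each of the other groups). Over all libraries the exception was Ndufab1, the acyl carrier protein itself, for which the annotated transcript length is 3479 bases. Among the assembly factors, Ndufaf4 has an annotated length of 3632 bases. Without division by length Ndufaf4 averaged 30.4 CPM, above the core gene Ndufs7 at 26.9 CPM, so this separation depends on the lengths used.

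**Figure D1:**
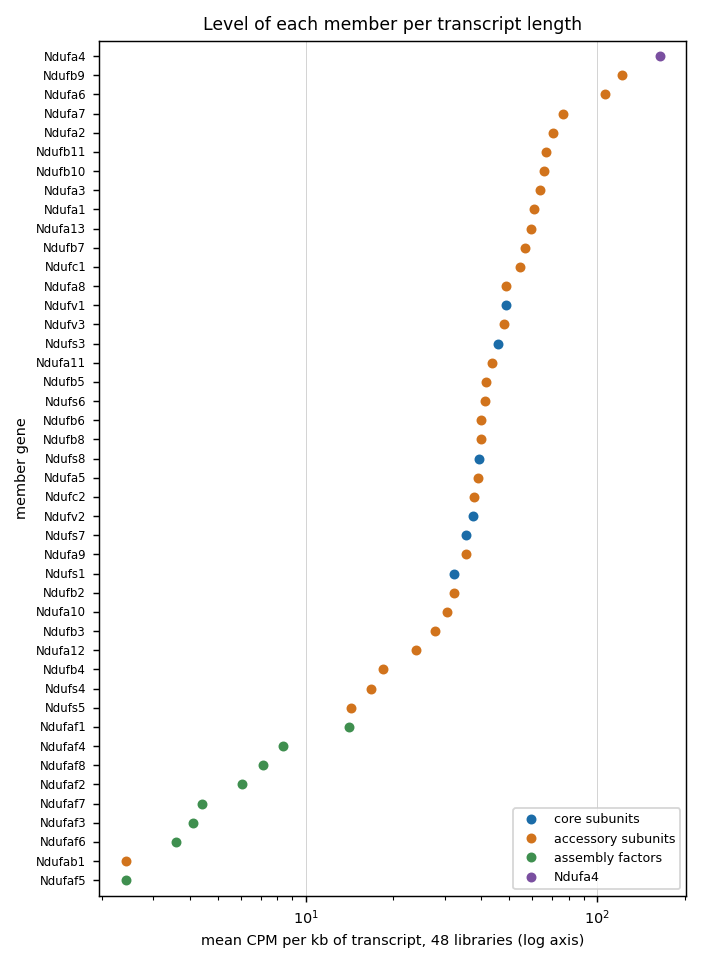
Mean level of each Nduf gene over the 48 libraries in CPM per kb of transcript (log axis), coloured by class. The 8 assembly factors lie at 14.1 CPM per kb or less, while the core subunits lie at 32.3 or more; 1 core gene is not shown.

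Direct formalin fixation was compared with freezing to ask how fixing fresh tissue moved these transcripts. Nearly every complex I gene was lower in FFPE than in FR: 43 of 45 members fell, 1 rose (Ndufaf8, only under some scalings) and 1 did not pass the test. Over all genes tested, 17.3% fell and 53% rose in the same contrast (edgeR's quasi-likelihood test, Benjamini-Hochberg adjusted p under 0.05). The median member changed by -0.90 on the log2 scale, and the median of all genes was 0.32, so the members stood 1.22 log2 units below it. The summed level of the 45 members was 1929 to 2700 CPM in the 12 FR libraries and 1094 to 1492 CPM in the 12 FFPE libraries, with no overlap.

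Of the 45 members, 14 were lower by at least 2-fold in both Con and PB mice, a size that 1.28% of all genes reached in that direction. In 31 members all 12 FFPE libraries lay below all 12 FR libraries, against 4.13% of all genes. Within mice, 40 members were lower in 12 of 12, for which the share of all genes was not computed. The 2-fold count depends on the level to which the libraries are scaled: with trimmed mean (TMM) scaling 27 members passed and with the total reads as library size 44, since the median of all genes then moved to 0.04 and -0.63. The share of all genes past 2-fold was not computed under these scalings, so 27 and 44 cannot be set against 1.28%. The distance between members and all genes was -1.22 under both. The Con libraries of FFPE and FR were in different L groups, and with a term for the L group, 38 members were lower and the distance was -1.40. FFPE and FR shared only L group 2, where FFPE had just the PB mice 75C and 80B. The term was thus set by PB libraries and carried over to Con, and the share of all genes was not computed with it.

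Core subunits fell least among the subunits. All 7 were lower, with a median of -0.70, and 5 did not overlap between preparations. Ndufs8, which holds iron-sulfur clusters close to the ubiquinone site, ran from 42.3 (median 47.5) to 51.9 CPM in FR Con and from 21.1 (median 23.2) to 25.2 CPM in FFPE Con. In PB mice it was at 45.9 (median 51.7) to 60.6 CPM in FR and 19.8 (median 23.5) to 32.2 CPM in FFPE. The FFPE libraries were all below the FR libraries, and Ndufs8 was the 1 core gene past 2-fold in both treatments, at -1.08 (SE 0.07, adjusted p = 5.44e-18, edgeR).

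Ndufv1 binds NADH and the flavin, and Ndufv2 sits beside it with an iron-sulfur cluster. Ndufv1 was at 98.4 (median 101) to 118 CPM in FR Con and 51.3 (median 60.2) to 70.99 CPM in FFPE Con, and at 79.9 (median 104) to 119.8 CPM in FR PB and 45.6 (median 65.2) to 72.3 CPM in FFPE PB. Ndufv2 was at 53.8 (median 59.8) to 64.2 CPM in FR Con and 31.2 (median 37.2) to 41.8 CPM in FFPE Con, and at 57.5 (median 69.4) to 80.6 CPM in FR PB and 29.0 (median 36.7) to 47.03 CPM in FFPE PB. Both were lower in every FFPE library than in any FR library, at -0.73 (SE 0.08) for Ndufv1 and -0.79 (SE 0.07) for Ndufv2.

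Ndufs1, Ndufs3 and Ndufs7, core genes too, belong to the electron path of the matrix arm or its scaffold. Ndufs1 was at 88.4 (median 98.7) to 106 CPM in FR Con and 55.02 (median 57.005) to 72.9 CPM in FFPE Con, and at 89.3 (median 105) to 119.9 CPM in FR PB and 58.9 (median 74.3) to 82.4 CPM in FFPE PB. Ndufs3 was at 43.8 (median 51.4) to 59.3 CPM in FR Con and 30.4 (median 35.4) to 38.5 CPM in FFPE Con, and at 50.5 (median 59.3) to 67.4 CPM in FR PB and 27.8 (median 36.9) to 48.9 CPM in FFPE PB. Ndufs7 was at 29.8 (median 31.7) to 35.2 CPM in FR Con and 11.8 (median 19.5) to 23.9 CPM in FFPE Con, and at 32.3 (median 35.1) to 41.2 CPM in FR PB and 17.7 (median 22.1) to 26.2 CPM in FFPE PB. Ndufs1 and Ndufs7 did not overlap between FR and FFPE, while the highest FFPE library of Ndufs3 reached above its lowest FR library. Their changes were -0.62 (SE 0.07), -0.61 (SE 0.07) and -0.70 (SE 0.08) for Ndufs1, Ndufs3 and Ndufs7.

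Accessory subunits fell further. Their median transcript was shorter than that of the core genes, and the part of transcript length in this class difference was not tested. All 29 accessory genes were lower in FFPE, 12 of them by 2-fold in both treatments, and 23 did not overlap. The 19 accessory genes of the membrane arm had a median of -1.08 and held 10 of those 12, and the 8 of the matrix arm had a median of -0.93 and held the other two. The remaining pair, Ndufa9 and Ndufab1, lie at the junction or in both arms and changed by -0.94 (SE 0.08) and -0.63 (SE 0.11).

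The lowest accessory values were in genes of the membrane arm. Ndufs5, on the intermembrane side, was at 9.29 (median 10.4) to 12.9 CPM in FR Con and 2.61 (median 3.21) to 6.51 CPM in FFPE Con, and at 10.9 (median 13.1) to 16.7 CPM in FR PB and 0.454 (median 1.62) to 8.35 CPM in FFPE PB. The preparations did not overlap although FFPE PB spread widely, and the change was -1.96 (SE 0.24, adjusted p = 5.56e-10, edgeR). Ndufs5 had fractional counts in 46 of 48 libraries and Ndufa7 in 32, which marks reads shared with other features, so their values are uncertain.

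Ndufa1, a small membrane subunit needed for assembly, was at 31.3 (median 36.2) to 41.9 CPM in FR Con and 10.3 (median 13.9) to 19.1 CPM in FFPE Con, and at 35.3 (median 41.3) to 48.8 CPM in FR PB and 11.3 (median 12.9) to 22.2 CPM in FFPE PB. Ndufb4, of the distal membrane arm, was at 18.2 (median 24.9) to 27.2 CPM in FR Con and 8.24 (median 9.50) to 11.1 CPM in FFPE Con, and at 22.2 (median 27.5) to 34.3 CPM in FR PB and 7.87 (median 12.1) to 15.0 CPM in FFPE PB. Ndufa3, a small membrane subunit, was at 41.1 (median 43.4) to 54.03 CPM in FR Con and 16.3 (median 19.1) to 25.9 CPM in FFPE Con, and at 44.6 (median 50.7) to 61.9 CPM in FR PB and 15.4 (median 20.5) to 23.1 CPM in FFPE PB. None of these 3 genes overlapped between FR and FFPE. The changes were -1.42 (SE 0.11) for Ndufa1, -1.29 (SE 0.09) for Ndufb4 and -1.28 (SE 0.08) for Ndufa3. Ndufa1 overlaps the opposite-strand gene Rnf113a1, and the strand setting of the counting is not given in the sources used here.

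Ndufa4, the highest per kb over all libraries, had the second lowest change. It was at 123 (median 139.5) to 154 CPM in FR Con and 44.8 (median 49.02) to 56.5 CPM in FFPE Con, and at 133 (median 169.9) to 192 CPM in FR PB and 45.7 (median 56.6) to 67.2 CPM in FFPE PB. The FR and FFPE libraries were far apart, at -1.52 (SE 0.08, adjusted p = 4.36e-22, edgeR).

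**Figure D2:**
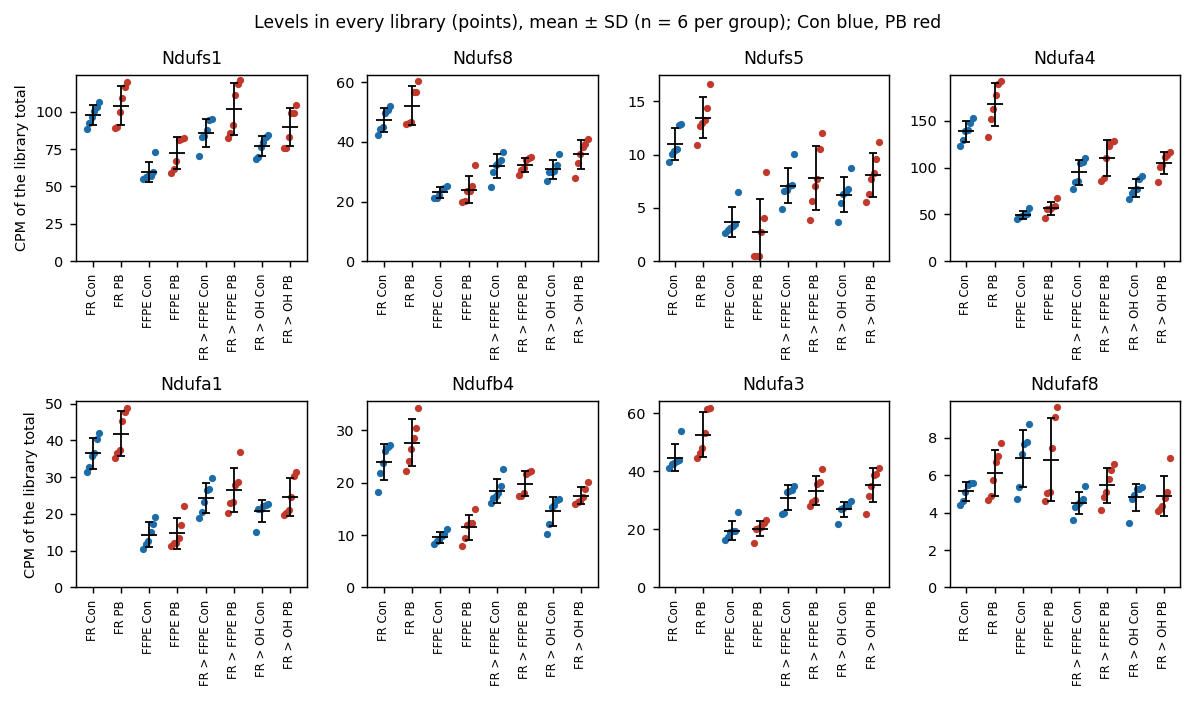
Level in CPM of the library total of selected Nduf genes in each of the 8 groups, with 1 point per library and the mean ± SD (n = 6, Con blue, PB red). FFPE libraries lie below FR libraries for Ndufs1 and Ndufa4.

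Assembly factors spread most and fell least. Of 8, 6 were lower, none by 2-fold in both treatments, and 2 did not overlap. Their median was -0.30 and the SD over genes was 0.42, against 0.29 over the accessory and 0.22 over the core genes. Ndufaf2, which binds late assembly intermediates, changed by -1.02 (SE 0.17), Ndufaf3 by -0.90 (SE 0.12) and Ndufaf1 by -0.62 (SE 0.07). Ndufaf7, which methylates a core subunit, changed by -0.32 and Ndufaf6 by -0.27.

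Ndufaf4, the partner of Ndufaf3, was at 23.1 (median 28.9) to 33.2 CPM in FR Con and 22.2 (median 25.8) to 28.6 CPM in FFPE Con, and at 26.3 (median 33.3) to 35.8 CPM in FR PB and 23.0 (median 26.4) to 35.4 CPM in FFPE PB. Ndufaf5 was at 2.46 (median 2.87) to 3.55 CPM in FR Con and 0.995 (median 2.42) to 3.31 CPM in FFPE Con, and at 2.76 (median 3.32) to 3.88 CPM in FR PB and 1.92 (median 2.29) to 5.65 CPM in FFPE PB. Ndufaf8, the partner of Ndufaf5, was at 4.43 (median 5.30) to 5.60 CPM in FR Con and 4.71 (median 7.41) to 8.72 CPM in FFPE Con, and at 4.69 (median 6.21) to 7.70 CPM in FR PB and 4.64 (median 6.26) to 9.66 CPM in FFPE PB. All 3 overlapped between FR and FFPE. Ndufaf4 was lower at -0.18 (adjusted p = 0.0393, edgeR) and Ndufaf5, at -0.27, did not pass (adjusted p = 0.165, edgeR). Ndufaf8 was higher at 0.30 (SE 0.12, adjusted p = 0.024, edgeR), but was at 0.01 with TMM scaling and lower, at -0.65, with the total reads as library size. Within mice, the median assembly factor stood above the median core gene in 12 of 12 mice and above the median accessory gene in 12 of 12, and the median accessory gene stood below the median core gene in 11 of 12.

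**Figure D3:**
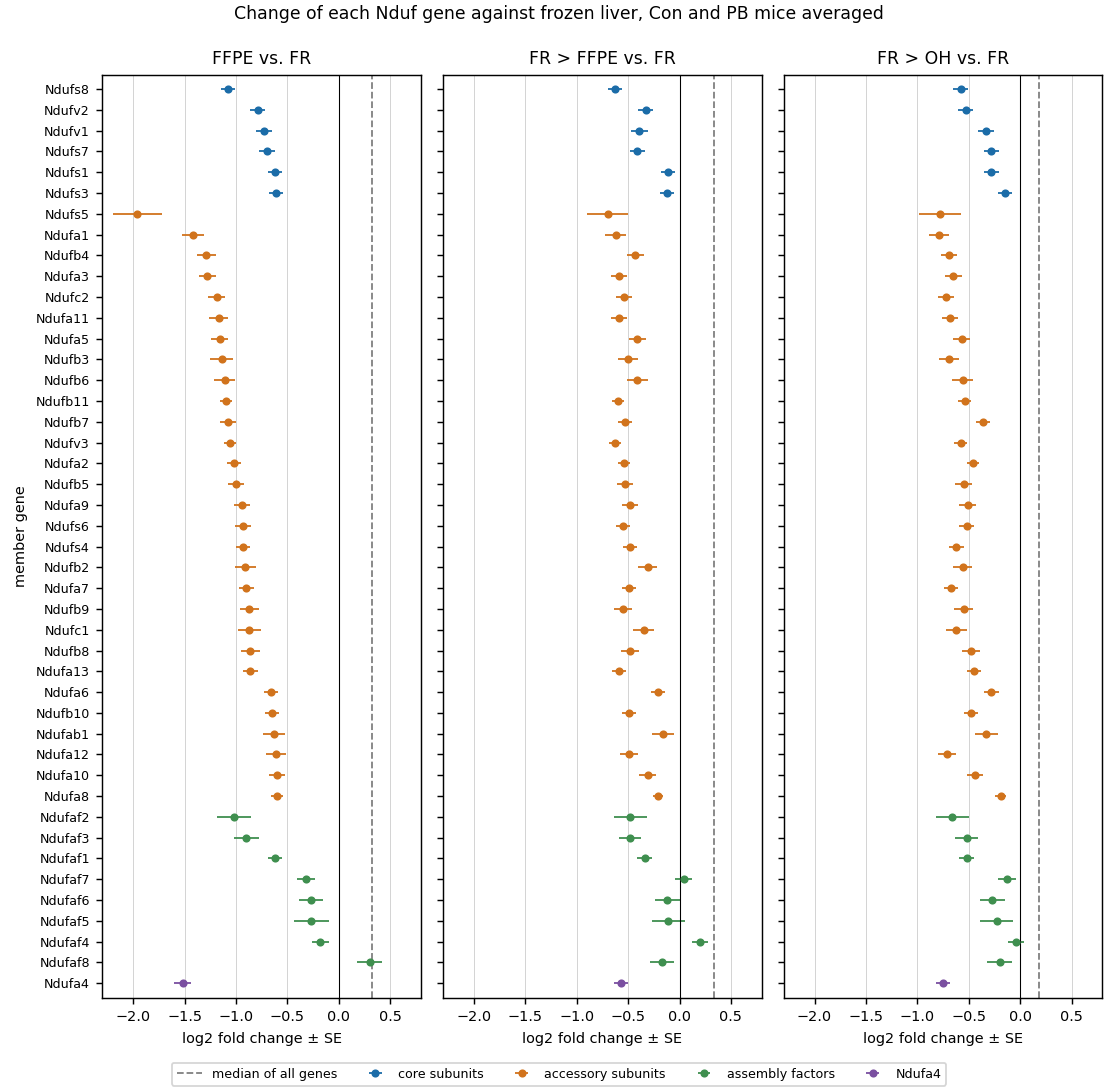
Log2 fold change ± SE of each Nduf gene against FR, with Con and PB averaged, by class, and the median of all genes as a dashed line. Values of FFPE vs. FR run from -1.96 (Ndufs5) to 0.30 (Ndufaf8, which is at -0.65 with the total reads as library size), and assembly factors reach furthest to the right; 1 core gene is not shown.

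Members with short transcripts had lower values, as did all genes. Under 700 bases, the median change was -1.09 over 16 members and -0.52 over all 364 genes. From 700 to below 1200 bases it was -0.70 over 15 members and -0.27 over 1030 genes, and from 1200 bases on it was -0.68 over 14 members and 0.38 over 11706 genes. Across genes, Spearman's rho of length with change was 0.58 over the 45 members and 0.38 over 13100 genes, all from the same libraries, and genes are not independent replicates. With a trend in transcript length and GC content removed, the members stood at -0.76 relative to all genes, and 42 of 45 were below the median gene. No core gene was under 700 bases, and the core, accessory and assembly genes were not compared with this trend removed.

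**Figure D4:**
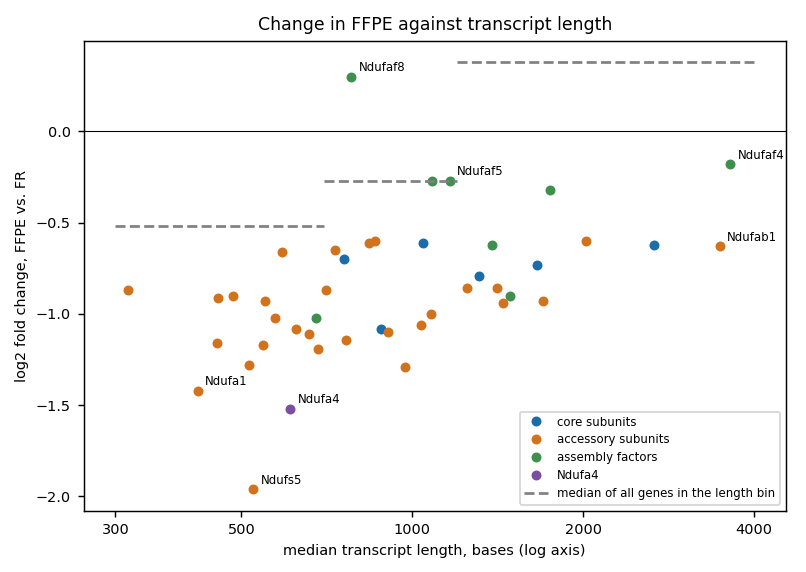
Log2 fold change of FFPE vs. FR against median transcript length in bases (log axis), for the Nduf genes except 1 core gene, with the medians of all genes by length as dashed lines. Members below 700 bases have a median of -1.09 and members from 1200 bases on a median of -0.68.

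Freezing before fixation left smaller differences from FR. FR > FFPE and FR > OH were each compared with the same 12 FR libraries, so these comparisons share their controls with each other and with FFPE vs. FR. Within each treatment, neither of them shared an L group with FR, so preparation and L group cannot be told apart there. In FR > FFPE, 37 members were lower (8.92% of all genes were) and 1 higher (56.5% of all genes were). In FR > OH, 40 were lower (13.3% of all genes) and 0 higher (41.7% of all genes). No member reached 2-fold in both treatments by edgeR, a size reached by 0.0224% of all genes with FR > FFPE and 0.0524% with FR > OH, where 2 members did with limma or the total reads as library size. The median member was at -0.48 (FR > FFPE) and -0.52 (FR > OH), which is 0.81 and 0.70 below the all-gene medians of 0.34 and 0.18. All libraries of the fixed tissue lay below all FR libraries for 10 members with FR > FFPE (1.02% of all genes) and for 15 with FR > OH (1.15%).

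Accessory genes had the lowest median in both comparisons, while core and assembly genes lay close together only in FR > OH. In FR > FFPE the medians were -0.33 for core, -0.49 for accessory and -0.15 for assembly genes. In FR > OH they were -0.28, -0.56 and -0.25, with the core median below the assembly median in 9 of 12 mice (11 of 12 with FR > FFPE) and the accessory median below both in 12 of 12. Ndufs8 was at 25.0 (median 32.7) to 36.7 CPM in FR > FFPE Con and 26.8 (median 30.1) to 36.1 CPM in FR > OH Con, and its changes were -0.63 (SE 0.07) and -0.58 (SE 0.07). It lay below FR in every library of both preparations. Ndufa4 was at 77.7 (median 95.3) to 111 CPM in FR > FFPE Con and 66.2 (median 76.6) to 90.9 CPM in FR > OH Con, at -0.57 (SE 0.07) and -0.75 (SE 0.07).

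Ndufaf4 was the 1 member that rose in FR > FFPE. It was at 30.0 (median 33.4) to 36.5 CPM in FR > FFPE Con and 29.2 (median 37.5) to 47.5 CPM in FR > FFPE PB. It was above FR in 12 of 12 mice although the groups overlapped, at 0.20 (SE 0.08, adjusted p = 0.0191, edgeR), but at -0.11 with TMM scaling and -0.18 with the total reads as library size. In FR > OH it was at -0.04 (adjusted p = 0.717, edgeR).

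FFPE was also compared with FR > FFPE, which had the same fixative and embedding but was frozen first. All FFPE libraries were in L groups 1 and 2 and all FR > FFPE libraries in L groups 3 and 4. Freezing and L group therefore cannot be told apart in this contrast. In this contrast 39 members were lower and 1 higher in FFPE, while 17.4% of all genes were lower and 11.8% higher. The median member was at -0.45, 0.43 below that of all genes, and 2 members did not overlap (0.516% of all genes). Core and accessory genes had nearly the same median, -0.44 and -0.47, and assembly genes were at -0.32. The accessory median was below the core median in 7 of 12 mice and below the assembly median in 12 of 12. Ndufs5 had the lowest value at -1.26 (SE 0.24), and Ndufa4 was at -0.95 (SE 0.08). Ndufaf8 was higher at 0.46 (SE 0.12, adjusted p = 0.00282, edgeR), yet was lower in 3 of 12 mice and at -0.11 with the total reads as library size.

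Other genes of the respiratory chain were counted for comparison, chosen by symbol. In FFPE vs. FR, 3 of 4 genes of complex II were lower with a median of -0.29, 8 of 8 of complex III with -0.93, 10 of 11 of complex IV with -1.10, and 14 of 17 of ATP synthase, with 3 higher, with -0.85. No difference between these groups and complex I was tested. Of 12 further genes that assist complex I assembly under other symbols, 9 had a row, 5 of them lower and 3 higher, with a median of -0.19.

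Markers of liver cells moved as well. In FFPE vs. FR, 6 of 8 hepatocyte markers were lower and 1 higher, with a summed level of 29713 to 49485 CPM in FFPE and 51687 to 103420 CPM in FR. Lower values were also found for 5 of 6 Kupffer cell, 3 of 4 erythroid, 2 of 5 stellate cell (1 higher), 1 of 5 endothelial (1 higher) and 1 of 5 cholangiocyte markers (2 higher). No marker was at 0 in all libraries of a preparation, and the part of these markers in the complex I result was not tested.

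PB was compared with Con within each preparation to ask whether the treatment response of these genes was seen after fixation. In FR, no member passed the test (edgeR, 5.86% of all genes were higher), with 12 higher at an unadjusted p under 0.05 (12.5% of all genes), and DESeq2, limma and the other scalings also called 0. The median member was at 0.16 and that of all genes at 0.00, and 43 of 45 values were above 0. Within L group 2 alone, which holds all 6 FR Con and 2 FR PB libraries and was examined after seeing the data, 3 members were higher (2.27% of all genes). The largest values were those of Ndufs5 at 0.29 (SE 0.27), Ndufa12 at 0.28 (SE 0.13) and Ndufa4 at 0.28 (SE 0.10), and their groups overlapped.

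In the fixed preparations a few members were higher with PB, none by 2-fold, and they are named here after their values were seen. In FR > OH, 8 members were higher (8.43% of all genes): Ndufa3, Ndufa4, Ndufa5, Ndufa12, Ndufb3, Ndufb6, Ndufc2 and Ndufs6, with changes of 0.33 to 0.46. Ndufa4 was at 66.2 (median 76.6) to 90.9 CPM in Con and 84.9 (median 107) to 117 CPM in PB, an overlap of the groups, at 0.42 (SE 0.10, adjusted p = 0.004037, edgeR). Ndufc2 was the 1 gene of the 8 whose groups did not overlap (4.26% of all genes), at 15.2 to 21.96 CPM in Con and 23.2 to 30.3 CPM in PB. All 6 PB libraries and 3 of the 6 Con libraries of FR > OH were in L group 5. Within it 0 of 45 passed edgeR's test, with 12 higher at an unadjusted p under 0.05 (10.3% of all genes), and the median member was at 0.17, against 0.22 with all 6 Con libraries.

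In FFPE, 1 member was higher (4.64% of all genes), Ndufaf7 at 4.21 (median 5.34) to 6.84 CPM in Con and 5.20 (median 7.78) to 10.1 CPM in PB, a change of 0.52 (SE 0.14, adjusted p = 0.0119, edgeR). Within L group 1 it was at 0.58 and did not pass (adjusted p = 0.17403, edgeR), and with TMM scaling and with DESeq2 Ndufv3 was called lower as well. In FR > FFPE, 1 member was higher (6.24% of all genes), Ndufab1 at 4.70 (median 8.12) to 8.41 CPM in Con and 7.79 (median 11.1) to 12.8 CPM in PB, a change of 0.48 (SE 0.15, adjusted p = 0.04475, edgeR). Both genes overlapped between treatments. The call for Ndufab1 was lost without the FR > FFPE Con library of mouse 21C, when 0 members passed edgeR's test and 3 were higher at an unadjusted p under 0.05. It was also lost with TMM scaling, total reads, DESeq2, limma and no filter on low counts, the adjusted p over these 6 alternatives running from 0.052106 to 0.13391. In FR > FFPE the L group and treatment cannot be told apart, because Con was in L group 3 and PB in L group 4.

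The difference in PB response between each fixed preparation and FR was tested as an interaction. It was called for 0 of 45 members in all 3 fixed preparations (0% of all genes in each) by edgeR, DESeq2 and limma. At an unadjusted p under 0.05 there were 2 members in FFPE (3.46% of all genes) and 0 in FR > FFPE and FR > OH (2.15% and 2.28%), and the smallest adjusted p was 0.9996. With the mouse as a block there were 4, 2 and 4 members at that p in FFPE, FR > FFPE and FR > OH (8.55%, 8.71% and 8.35% of all genes), again with 0 calls, and the smallest adjusted p was 0.2787, for Ndufv3, a matrix arm accessory subunit. The calls in single preparations are therefore not shown to differ from FR.

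**Figure D5:**
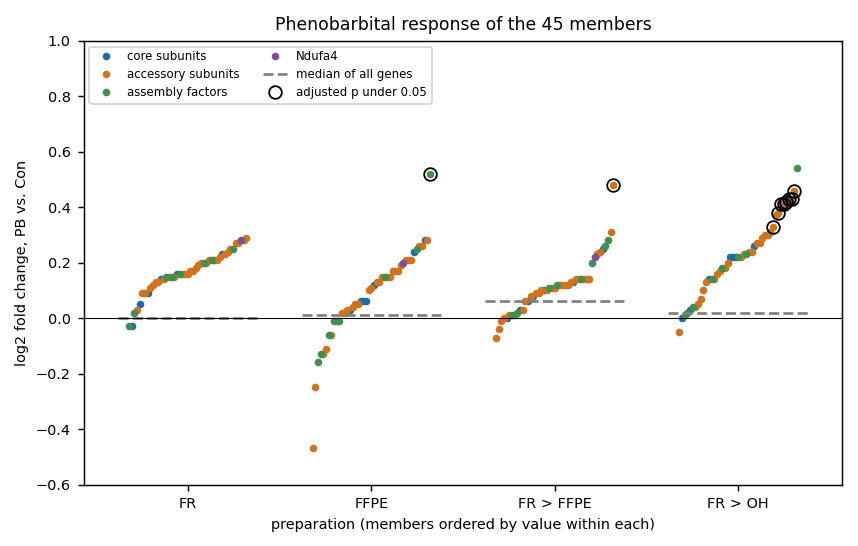
Log2 fold change of PB vs. Con for each Nduf gene within each preparation, ordered by value. The median is 0.22 for FR > OH, 0.16 for FR, and 0.11 for both FFPE and FR > FFPE.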

How the data were processed

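RNA-seq libraries of 48 mouse liver preparations were analysed. The authors deposited estimated counts per gene, which per their methods came from reads aligned to mm10 with STAR (version 2.5.3a in the submitters' processing notes, which also name CASAVA 1.8.2 and Partek) and assigned to RefSeq genes by expectation maximisation. Of the values, 94.0% were whole within 0.001, and they were rounded. The deposited log2 CPM table, made by the authors, was used for limma only.

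Genes with a geometric mean above 1 count (offset 0.0001) were kept. The 13370 genes were tested in 1 fit of all 8 groups with edgeR's quasi-likelihood test (edgeR 4.0.16, R 4.3.3) and Benjamini-Hochberg adjustment, with the total over kept genes as library size. Preparation effects are averages of Con and PB. CPM were computed from library totals. Totals of 4952797 to 13702672 counts limit precision for the lowest genes. Transcript lengths came from GENCODE M21 (13100 genes, 98.0%), per symbol. Alternatives were TMM, total reads, DESeq2 1.42.0, limma 3.58.1, no filter, a term for the number after L in the titles (L group), single L groups, left-out libraries and the mouse as a block. Scripts were tested on simulated data.

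The labels name the mouse of each library, so same-numbered libraries come from 1 animal: deviations from group means correlated above 0.1 in 72 of 72 same-mouse pairs (median r = 0.747 over 5653 genes; other mice, -0.147). No replicates were duplicates (120 pairs, smallest chi-square per degree of freedom 6.408). Values are given by library for the core genes, the 5 lowest and 3 highest in FFPE vs. FR, the 3 highest per kb, the 3 with the largest PB change in FR, and the genes beside the 1 CPM limit. The values of 1 core gene are not reported here, though counts and medians over the members include it. The members and lists were chosen with earlier results of these data known.

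Rat and AML12 TempO-Seq tables of deposited counts were read separately, and the authors' log2 TempO-Seq tables were not used.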

Additional observations from a re-analysis of the deposited data

Results flagged for a closer look

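For 19 genes and 4 summed levels in 8 groups each, 184 sets of 6 values, 14 sets had 1 library far from the other 5 by Dixon's criterion. Chance gives about 1 in 20 such sets, and the 184 share libraries. In FR Con, the library of mouse 21C was the highest for Ndufs7 (35.19 CPM), Ndufv1 (117.7 CPM), Ndufa3 (54.03 CPM) and Ndufb9 (141.8 CPM). The same mouse was the lowest for Ndufaf8 in FR > OH Con (3.443 CPM) and for Ndufa12 in FR > FFPE Con (11.38 CPM), so it held 6 of the 14. Without its FR Con library, left out after seeing the data, 42 members were lower in FFPE vs. FR and 12 by 2-fold in both treatments.

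In FFPE Con, mouse 90C was high for Ndufs5 (6.505 CPM) and Ndufa3 (25.85 CPM), and mouse 8D was high for Ndufs1 (72.87 CPM). In FR > OH Con, mouse 8A was low for Ndufa1 (14.97 CPM) and Ndufa3 (21.998 CPM), and mouse 8D was high for Ndufa4l2 (1.312 CPM). Among PB mice, 18D was high for Ndufaf5 in FFPE (5.653 CPM) and 75C was high for Ndufaf8 in FR > OH (6.925 CPM).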

How the results depend on the processing

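Members lower in FFPE vs. FR remained so in all 10 settings for 38 of the 45 genes. With the mouse as a block, 43 were lower and 14 passed 2-fold, as without it. PB vs. Con could not be fitted with this block, since each mouse had 1 treatment. The 14 became 27 with TMM and with DESeq2, 44 with total reads and with limma on the log2 CPM, and 21 with an L group term. In FR > OH the 0 became 2 with total reads and with limma. The share of all genes past 2-fold was not computed for these settings. The distance of the median member from all genes in FFPE vs. FR (-1.22) was -1.40 with an L group term, which PB libraries alone could set. It was -0.76 after a trend in length and GC content. In PB mice it was -1.26, and -1.50 within L group 2, which rests on 2 FFPE and 2 FR libraries of different mice (added after seeing the data). After the trend it was -0.41 for FR > OH and -0.38 for FR > FFPE. Ndufaf8 turned to -0.65 with total reads and -0.70 with limma. For PB vs. Con, the 1 call in FFPE became 0 within L group 1. The 1 in FR > FFPE became 0 with TMM, total reads, DESeq2, limma, no filter and without mouse 21C. The 8 in FR > OH became 17 with total reads, 13 with limma and 0 within L group 5. The causes were not tested, except that total reads as library size shifts all genes of a library alike. Among values that summarise a comparison, 104 were counted as unchanged, which allowed some movement, as in the 21 with an L group term. For single genes, 454 values kept their call, while 25 calls were lost and 4 gained. The low depth of FFPE limits the rarest members, such as Ndufaf2.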

Other observations

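Nduf genes were also read in the probe-based TempO-Seq tables, where 3 genes passed a mean of 10 CPM in rat liver and rat lung and 9 in AML12, a mouse hepatocyte line. The rat tissues were labelled as vehicle controls. In rat liver, Ndufb8, an accessory subunit, was at 396 (median 418) to 455 CPM in FR, 177 (median 212) to 263 CPM in FFPE and 391.7 (median 413) to 444 CPM in FR > FFPE. It was lower in FFPE by an exact two-sided permutation test (log2 difference -1.01, n = 6 and 6, p = 0.002165, adjusted p = 0.005195 over 12 tests) while the panel median was 1.68. FR > FFPE liver differed from FR by -0.03 (exact permutation p = 0.5433), against a panel median of 0.83. In rat lung, Ndufb8 was at 692 to 731 CPM in 5 FR libraries and 297 to 420 CPM in 6 FFPE libraries, which the labels give as fixed directly in formalin for 1 year, a log2 difference of -0.98 (exact permutation p = 0.004329, adjusted p = 0.005195), and 1 FR library with 12 counts in all was left out. FR > FFPE lung, frozen before fixation for 18 to 24 h, was at 485 (median 574) to 738 CPM and overlapped FR, with a log2 difference of -0.29 (exact permutation p = 0.02597, adjusted p = 0.02833). The panel medians in lung were 0.95 for FFPE and 1.0 for FR > FFPE.

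The other two genes were higher in FFPE. In rat liver, Ndufv3 differed by 1.54 (exact permutation p = 0.002165) and Ndufaf4 by 3.09, against a panel median of 1.68. Ndufaf4 averaged 7.76 CPM in FR and passed the limit of 10 CPM only through the fixed tissue. Its rise is therefore not independent of that choice, and in FFPE it rested on 17 to 42 counts. The panel genes were chosen by the same mean over all libraries. Rat liver totals were 139475 to 889128 counts in FFPE and 3040915 to 3970187 in FR, and the part of this depth difference in the result was not tested. AML12 cells were exposed to 0.006%, 0.03% or 0.1% formalin for 10 minutes. With 3 cultures per group the exact permutation p cannot fall below 0.1, and 4 of 27 comparisons reached that value. Ndufv2 was higher at 0.006% (log2 difference 0.5) and 0.03% (0.39), Ndufb5 higher at 0.03% (0.15) and Ndufv1 lower at 0.1% (-0.28). The share of all panel genes at that value was not computed, so no conclusion is drawn.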
